A study of Mus musculus with 4 samples.

Results

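The genes described here build the moving parts of the sperm tail: the axonemal dynein chains, the factors that assemble them, the nexin-dynein regulatory complex, the radial spokes and the tektins. They were taken from the table of testis transcripts by gene symbol (stems Dnah, Dnai, Dnal, Dnaaf, Drc, Odad, Rsph and Tekt, without Rsph3a and Rsph3b), which gave 36 genes of the 17924 symbols listed. No current Dnai or Odad symbol was among them. Intermediate chain and docking genes are listed under older symbols, such as Dnaic1, Dnaic2 and Ccdc151, which this rule does not reach. Some of these are counted further below with other genes of the axoneme, but Dnaic1 and Dnaic2 were not compared. The samples were testes of male C57BL/6 mice on a normal diet for 18 weeks, 2 from Tas1r3-deficient mice (KO) and 2 from wild-type mice (WT). Tas1r3 encodes a taste receptor subunit common to sweet and umami sensing; the labels give neither the age of the mice nor how the gene was inactivated, nor whether the samples of a genotype are separate animals, so the p-values measure only the spread between these samples.

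The axoneme of a motile cilium or flagellum is a ring of microtubule doublets around a central pair. Outer and inner dynein arms on each doublet walk along the neighbouring doublet, and radial spokes and the nexin-dynein regulatory complex turn this sliding into a bend. Tektins are filament proteins of the doublet wall. Dynein arms are put together in the cytoplasm by dedicated assembly factors before they enter the tail. In testis these genes are transcribed largely in spermatocytes and spermatids, while somatic multiciliated cells, such as those of the efferent ducts, use an overlapping but different set of dynein heavy chains.

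Levels are given in CPM, reads scaled to 1000000 per library, with the transcripts of a gene summed. The low values of each library rise in steps of 1 read, which gave an estimated depth of 748637 and 597936 assigned reads in KO samples 1 and 2, and 1719358 and 1807697 in WT samples 1 and 2, a mean 2.62 times higher in WT. Values of a genotype are given with sample 1 before sample 2 throughout. Tas1r3 itself was at 1.34 and 0 CPM in the KO samples and at 13.8 and 20.5 CPM in the WT samples, which fits the labels of all 4 libraries; 3 reads would be 5.02 CPM in KO sample 2. The late spermatid markers of the list for elongating spermatids summed to 34619 and 45594 CPM in the KO samples and to 39186 and 39447 CPM in the WT samples. Germ cell transcripts of the labelled tissue were thus abundant, and Dnah1, Dnah8, Dnah17 and Tekt2 were detected in all 4 libraries.

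Together the 36 genes made up 0.745% of all CPM in KO testes and 0.753% in WT testes. Their summed level was 7942 and 6961 CPM in the KO samples and 7401 and 7652 CPM in the WT samples, so the KO samples lie on either side of both WT samples. All 36 genes passed the filter on low values, at least 1 CPM in 2 libraries. In limma with Benjamini-Hochberg adjustment over the 17744 genes tested, 0 of the 36 passed an adjusted p of 0.05 in either direction (background: 0% of all genes higher and 0.00564%, a single gene that is not among them, lower). At an unadjusted p under 0.05 there were 0 higher and 2 lower, Dnah5 and Rsph14, where the background is 1.37% of all genes higher and 3.33% lower. Both KO values lay above both WT values in 6 genes (16.7%, background 15%) and below them in 12 genes (33.3%, background 19.4%). The median log2 fold change, taken as KO over WT of log2(CPM + 1), was -0.05 over the 36 genes and -0.05 over all genes tested. It was positive in 15 and negative in 21 of the 36. Over all 17744 genes tested, 7919 were positive and 9825 negative, so more negative than positive signs are the rule in this table. For the 29 genes averaging 50 CPM or more, fold changes lay between -0.26 and 0.29, and their limma 95% intervals between -0.69 and 0.76.

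**Figure D1:**
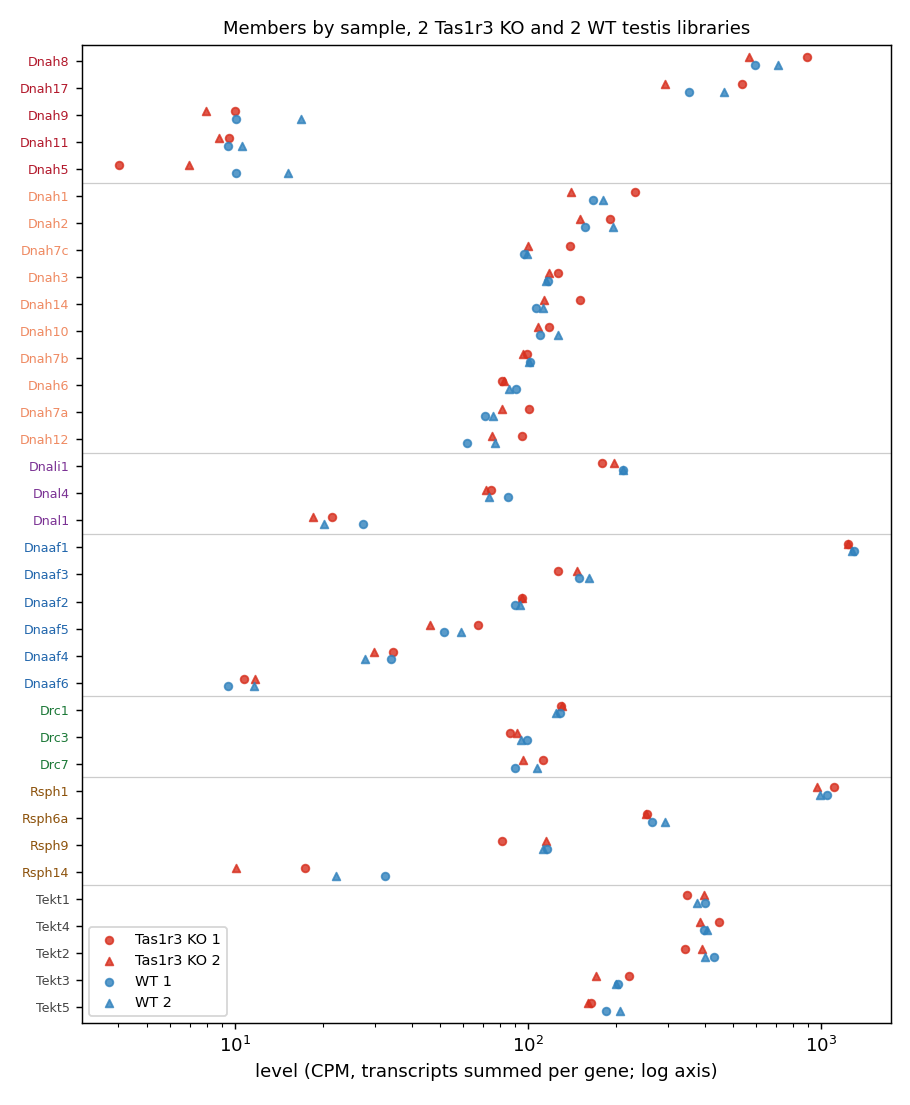
Level of each of the 36 genes in CPM (horizontal log axis) in the 2 KO samples (red) and the 2 WT samples (blue); circles are sample 1 and triangles sample 2, and grey lines part the role classes. KO and WT points lie close together for most genes, while the KO points of Dnah8, Dnah17 and Dnah1 lie further apart than the WT points.

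Outer arm heavy chains are the motors that supply most of the power of the beat. Dnah8 and Dnah17 encode those of the mammalian sperm tail, and Dnah5, Dnah9 and Dnah11 those of somatic motile cilia. Per kilobase of transcript, Dnah8 stood at 61.2 and 38.7 CPM in the KO samples and at 40.7 and 49.0 CPM in the WT samples, the highest of the 15 heavy chains in each library. Dnah17 came next in each library, at 36.02 and 19.7 CPM per kilobase in the KO samples and 23.8 and 31.4 in the WT samples. Dnah8 exceeded Dnah17 per kilobase 1.70 and 1.97 times in the KO samples and 1.71 and 1.56 times in the WT samples. Dnah5, Dnah9 and Dnah11 lay between 0.257 and 1.22 CPM per kilobase, below every other heavy chain in all 4 libraries.

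**Figure D2:**
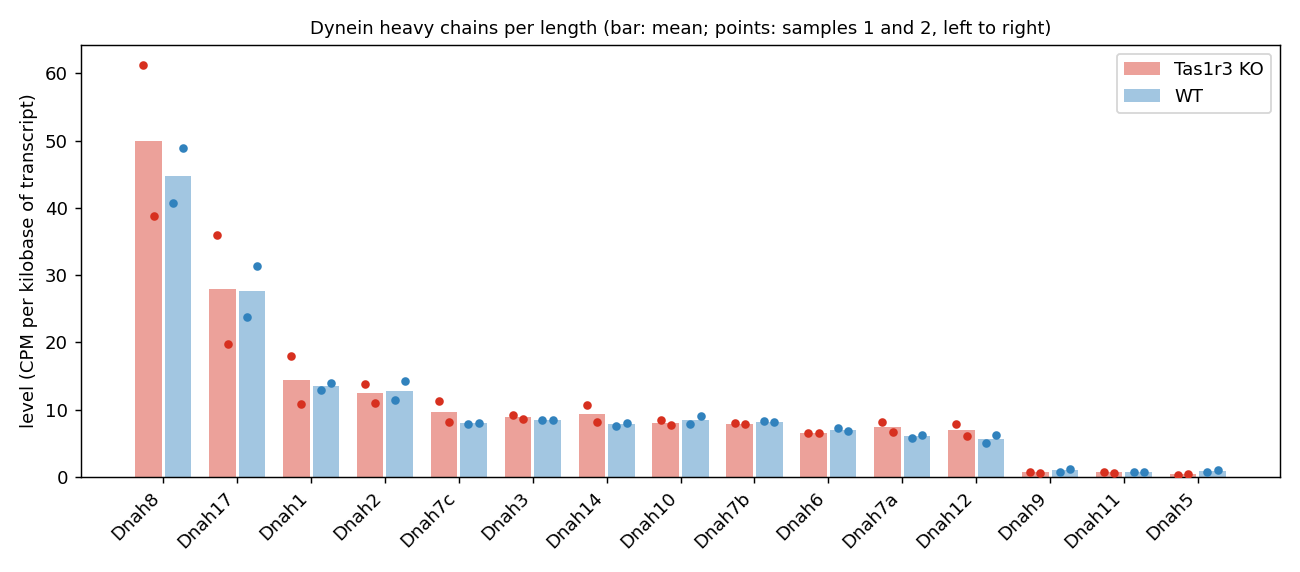
Level of the 15 dynein heavy chains in CPM per kilobase of transcript (vertical axis), KO (red) left of WT (blue); bars are means of 2 samples and points the samples. Dnah8 and Dnah17 stand above the other heavy chains in both genotypes, and Dnah9, Dnah11 and Dnah5 lie near 0.

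The start regions of the 5 outer arm genes are shown because they hold both the highest and the lowest heavy chains per kilobase. They are the windows of RefSeq on GRCm38.p6, 250 bases before to 50 after the annotated start, 5′ to 3′ on the gene's strand; the deposited tables use the later build mm39, and the start used in testis was not measured. Capitals mark CNGTTA, the core bound by MYB factors, on either strand; GTTGCC, a half-site of the X-box bound by the RFX factors of ciliated cells, is in none of the 5.
Dnah8 (chr17:30626686-30626985, plus strand): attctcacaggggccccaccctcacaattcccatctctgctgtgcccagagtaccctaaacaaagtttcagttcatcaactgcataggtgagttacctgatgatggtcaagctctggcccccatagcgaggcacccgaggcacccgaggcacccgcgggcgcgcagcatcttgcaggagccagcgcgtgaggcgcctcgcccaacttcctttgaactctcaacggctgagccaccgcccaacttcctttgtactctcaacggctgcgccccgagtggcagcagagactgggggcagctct
Dnah17 (chr11:118129170-118129469, minus strand): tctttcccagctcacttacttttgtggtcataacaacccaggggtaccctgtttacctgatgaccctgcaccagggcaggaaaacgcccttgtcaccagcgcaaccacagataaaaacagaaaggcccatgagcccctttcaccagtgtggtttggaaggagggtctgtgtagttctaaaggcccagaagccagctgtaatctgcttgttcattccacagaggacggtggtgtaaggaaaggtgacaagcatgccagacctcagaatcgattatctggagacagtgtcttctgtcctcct
Dnah5 (chr15:28203516-28203815, plus strand): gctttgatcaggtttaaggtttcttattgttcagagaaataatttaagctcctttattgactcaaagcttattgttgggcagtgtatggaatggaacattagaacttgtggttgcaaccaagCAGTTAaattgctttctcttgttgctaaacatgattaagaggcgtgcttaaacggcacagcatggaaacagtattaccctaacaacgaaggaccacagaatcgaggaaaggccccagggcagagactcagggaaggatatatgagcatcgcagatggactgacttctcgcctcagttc
Dnah9 (chr11:66168502-66168801, minus strand): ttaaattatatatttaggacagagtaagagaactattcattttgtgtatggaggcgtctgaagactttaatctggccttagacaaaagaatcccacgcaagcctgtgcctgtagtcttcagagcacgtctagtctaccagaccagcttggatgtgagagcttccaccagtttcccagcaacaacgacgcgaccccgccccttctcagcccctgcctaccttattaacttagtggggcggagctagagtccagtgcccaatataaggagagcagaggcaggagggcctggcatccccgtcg
Dnah11 (chr12:118198994-118199293, minus strand): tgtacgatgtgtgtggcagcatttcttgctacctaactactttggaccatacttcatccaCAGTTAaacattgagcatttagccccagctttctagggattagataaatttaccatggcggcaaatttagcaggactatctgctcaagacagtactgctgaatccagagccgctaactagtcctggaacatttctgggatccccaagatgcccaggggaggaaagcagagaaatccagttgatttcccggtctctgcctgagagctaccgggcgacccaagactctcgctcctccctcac

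Among the 5 windows the CNGTTA letters are found in those of Dnah5 and Dnah11 and not in those of Dnah8, Dnah17 and Dnah9, so of the 3 genes at the low end Dnah9 lacks them. Windows were found for 33 of the 36 genes (37 windows, since Tekt1, Tekt2 and Rsph14 have several, which for Tekt2 and Rsph14 overlap). GTTGCC, on either strand, lies in 13 of the 37 windows (35.1%), in 12 genes, against 12.4% of the 32544 distinct windows of all genes. CNGTTA lies in 15 windows (40.5%), against 23.4% of all. TGACGTCA, the cyclic AMP response element, lies in 1 window (2.7%), that of Dnah6, against 1.8% of all, and the forkhead letters TGTTTAC in 2 (5.41%), Dnah17 and Tekt3, against 3.66%. GTTGCC and CNGTTA occur together in 6 windows, in none of them overlapping, and 3 of the 6 belong to the near copies Dnah7a, Dnah7b and Dnah7c. These are matches of letters, not measured binding.

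Dnah8 lies on chromosome 17 of mm39 from 30845910 to 31094239. It was at 893 and 565 CPM in the KO samples and at 593 and 714 CPM in the WT samples. The KO samples thus lie on either side of both WT samples. Its log2 fold change was 0.13 with a 95% interval of -0.37 to 0.62 (limma adjusted p = 0.960).

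Dnah17, on chromosome 11 from 117912549 to 118020046, was at 536 and 293 CPM in the KO samples and at 355 and 467 CPM in the WT samples. Again KO 1 was the highest and KO 2 the lowest of the 4 libraries. The log2 fold change was -0.04 (95% interval -0.66 to 0.58, limma adjusted p = 0.993). The call for this gene turned on which KO library was kept: without KO sample 1 it passed as lower in KO (-0.47, adjusted p = 0.0043), and without KO sample 2 it passed as higher in KO (0.40, adjusted p = 0.028). Dnah8 passed as higher without KO sample 2 (0.46, adjusted p = 0.0030) and stood at -0.20 (adjusted p = 0.252) without KO sample 1. In these fits the lone KO sample is assumed to vary like the WT samples, and many genes passed: 2.48% of all genes as higher and 5.89% as lower without KO sample 1, and 0.834% as higher and 2.91% as lower without KO sample 2.

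The gap between the KO libraries was larger than counting error for these genes. Dnah17 rested on about 401 reads in KO sample 1 and 175 in KO sample 2, a ratio of 1.83 after scaling by depth (exact 95% interval 1.53 to 2.20, counting error only). Dnah8 had about 668 and 338 reads, a ratio of 1.58 (1.38 to 1.80). Between WT samples 2 and 1 the ratio was 1.32 (1.19 to 1.47) for Dnah17 and 1.21 (1.11 to 1.31) for Dnah8, so the WT libraries also differed, by less.

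This gap moved with transcript length across genes averaging 20 CPM or more. Heavy chain transcripts are 12.2 to 15.6 kilobases long, and those of the other 21 genes 0.951 to 5.82 kilobases. Of the 15 heavy chains, 13 were higher in KO 1 than in KO 2, with a median log2 ratio of 0.30. Of the 12 that averaged at least 20 CPM, 11 were higher in KO 1 (91.7%), with a median of 0.34. Among the 161 other genes of 10000 bases or more and a mean of at least 20 CPM, 76.4% were higher in KO 1, with a median of 0.32. Among 768 other genes under 1000 bases the share was 23.3% and the median -0.32. The medians between WT samples 1 and 2 were -0.04 and 0.03 for the same length classes. After the median of each of 20 length classes was subtracted in each library, a step added after the values were seen, 9 of 15 heavy chains were higher in KO 1, with a median of 0.03. Dnah17, Dnah1 and Dnah8 then kept log2 ratios of KO 1 over KO 2 of 0.60, 0.45 and 0.39, against 0.87, 0.72 and 0.66 before. The 20 classes held about equal numbers of genes, so the heavy chains shared the longest class with genes under 10000 bases. The step may thus leave part of the trend with length in these ratios. What sets the KO libraries apart by length was not tested.

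**Figure D3:**
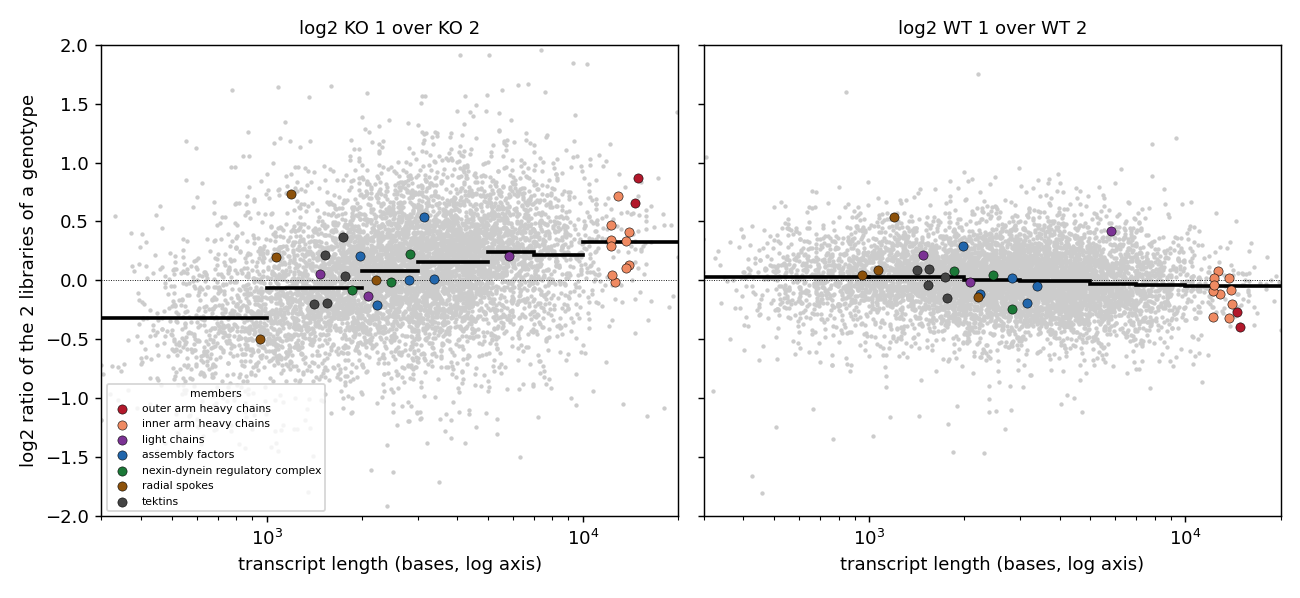
Log2 ratio of the 2 libraries of a genotype (vertical axis, KO 1 over KO 2 on the left and WT 1 over WT 2 on the right) against transcript length in bases (log axis), for genes averaging 20 CPM or more. Grey points are other genes (a few lie outside the frame), black bars their medians by length class, and coloured points the genes described here; the medians run from -0.32 for the shortest to 0.32 for the longest genes between the KO libraries.

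The 3 somatic outer arm genes rested on few reads. Dnah5, on chromosome 15 from 28203912 to 28472192, was at 4.01 and 6.97 CPM in the KO samples (about 3 and 4 reads) and at 10.1 and 15.2 CPM in the WT samples (about 17 and 27 reads). Both KO values lie below both WT values. Its log2 fold change of -1.08 (95% interval -2.13 to -0.03) did not pass over all genes (limma adjusted p = 0.942) and passed as lower without KO sample 2 (-1.42, adjusted p = 0.048), as did 2.91% of all genes. Without KO sample 1 it was -0.75 (adjusted p = 0.271). The depth-scaled read ratio of Dnah5 was 0.417 (exact 95% interval 0.158 to 0.933, counting error only). The same intervals of Dnah9 (0.323 to 1.28), Dnah11 (0.424 to 1.77), Dnal1 (0.530 to 1.33) and Dnaaf6 (0.541 to 1.98) include an equal level. None of these intervals covers the spread between samples. Dnah9 was at 10.02 and 7.96 CPM in the KO samples and at 10.1 and 16.8 CPM in the WT samples. There the nearest samples of the genotypes are all but equal, and the log2 fold change was -0.50 (95% interval -1.43 to 0.43, limma adjusted p = 0.942). Dnah11 overlapped, at 9.53 and 8.82 CPM in the KO samples and 9.44 and 10.6 CPM in the WT samples.

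Summed, Dnah5, Dnah9 and Dnah11 were at 23.6 and 23.8 CPM in the KO samples and at 29.6 and 42.5 CPM in the WT samples. Both KO sums lie below both WT sums. Beside them, 7 other genes from the list for multiciliated epithelium of the efferent ducts summed to 1082 and 1231 CPM in the KO samples and to 1224 and 1182 CPM in the WT samples, so these sums overlap. None of the 7 was at 0 in any library, and Mlf1 and Deup1 made up most of the sum. Which cells of whole testis gave these reads was not measured, so the sum need not stand for duct epithelium. Mlf1 overlapped, at 594 and 732.5 CPM in the KO samples and 661 and 647 CPM in the WT samples. Deup1 did not, at 283 and 316 CPM in the KO samples and 327 and 324 CPM in the WT samples. In 3 of the 7 both KO values lay below both WT values (42.9%, background 19.4%), and the median log2 fold change of the 7 was -0.22, against -0.05 over all genes tested. The list's smallest p belonged to Tppp3, at 6.68 and 11.7 CPM in the KO samples and 19.5 and 13.6 CPM in the WT samples. Next came Ccno, a gene of centriole amplification in multiciliated cells, at 3.08 and 1.67 CPM in the KO samples and 5.57 and 3.94 CPM in the WT samples. In Tppp3, Ccno and Deup1 the KO samples thus lie below the WT samples, as in Dnah5, while the sum over the list overlaps. In KO samples 1 and 2, 3 reads would be 4.01 and 5.02 CPM, so Ccno lies under 3 reads in both KO libraries. Tppp3 rests on few reads as well. The master regulator of motile cilia Foxj1 was at 108 and 82.0 CPM in the KO samples and 113 and 107 CPM in the WT samples. Of the 7 genes, 6 had a log2 fold change below 0 and 0 passed. A further 6 markers of epididymis and tract epithelium summed to 54.6 and 53.8 CPM in the KO samples and to 72.0 and 64.1 CPM in the WT samples. Both of these KO sums lie below both WT sums. Of these 6, 1 had a positive and 5 a negative log2 fold change, 0 passed, and 2 stayed below 5.02 CPM in every library. The part of either list in the values of Dnah5 was not tested. In whole testis, fewer cells of a type and less RNA per cell cannot be told apart.

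Inner arm heavy chains shape the bend. The 10 genes lay between 61.7 and 231 CPM and between 5.04 and 17.9 CPM per kilobase, a much narrower range than the outer arm genes. Their sum was 1330 and 1063 CPM in the KO samples and 1078 and 1167 CPM in the WT samples, with the KO samples again on either side. Of the 10, 6 had a positive and 4 a negative log2 fold change, with a median of 0.06, and 0 passed. Beside them, 11 markers of meiotic spermatocytes summed to 1418 and 1213 CPM in the KO samples and to 1152.5 and 1146 CPM in the WT samples, both KO sums above both WT sums. Of these markers 10 had a positive fold change and 0 passed, and their part in the inner arm values was not tested.

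Dnah1, whose loss causes malformed sperm tails in humans, led the class per kilobase together with Dnah2. Dnah1 was at 231 and 140 CPM in the KO samples and at 166 and 180 CPM in the WT samples (log2 fold change 0.05, limma adjusted p = 0.988). Dnah2 was at 190 and 150 CPM in the KO samples and at 156 and 194 CPM in the WT samples. In both genes the genotypes overlap. Per kilobase, Dnah8 exceeded Dnah1 3.42 and 3.56 times in the KO samples and 3.15 and 3.49 times in the WT samples.

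In 4 of the 10 inner arm genes both KO values lay above both WT values (background 15%), and in 2, Dnah6 and Dnah7b, below them (background 19.4%). Dnah6 was at 81.7 and 82.5 CPM in the KO samples and at 91.1 and 86.2 CPM in the WT samples. The genes above WT were Dnah3, Dnah7a, Dnah7c and Dnah14. Dnah14 was at 150.4 and 113 CPM in the KO samples and at 106 and 112 CPM in the WT samples. Dnah3 was at 126 and 117 CPM in the KO samples and at 117 and 115 CPM in the WT samples. In Dnah3, Dnah7c and Dnah14, KO 2 lay within 1 CPM of the nearest WT sample, and KO 1 lay further off. Dnah12, with overlapping genotypes at 95.4 and 75.1 CPM in the KO samples and 61.7 and 76.8 CPM in the WT samples, had the highest log2 fold change of the 36 genes, 0.29 (95% interval -0.17 to 0.76, limma adjusted p = 0.942).

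Dnah7a, Dnah7b and Dnah7c are near copies of an inner arm gene on chromosome 1, and their division of reads is uncertain. Dnah7a was at 100.3 and 81.7 CPM in the KO samples and at 71.5 and 76.1 CPM in the WT samples. Dnah7c was at 138 and 99.9 CPM in the KO samples and at 96.5 and 99.0 CPM in the WT samples. Neither overlaps, while Dnah7b lies the other way, at 99.0 and 96.0 CPM in the KO samples and 102 and 101 CPM in the WT samples. Their sum was 338 and 278 CPM in the KO samples and 269.8 and 276 CPM in the WT samples. The sum of KO 2 thus lies close to that of WT 2.

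**Figure D4:**
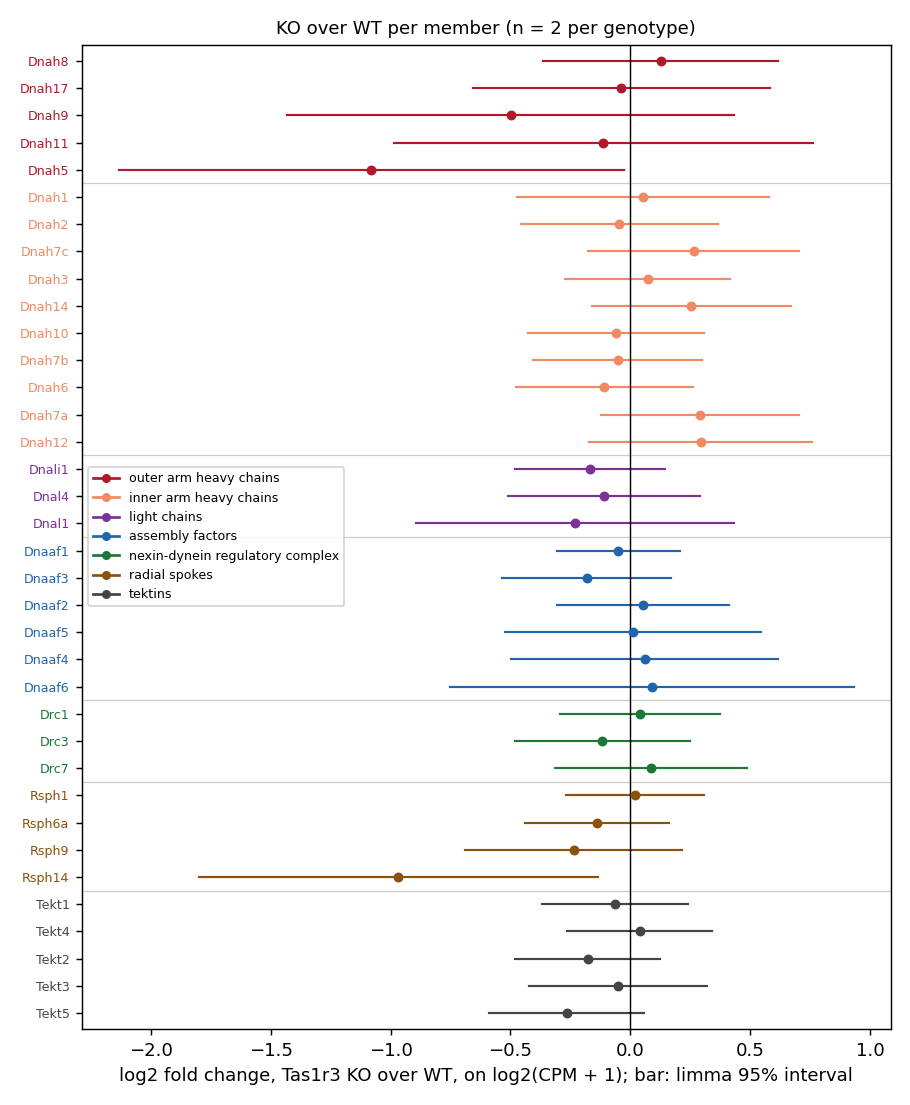
Log2 fold change (KO over WT of log2(CPM + 1)) for each gene (points) with its limma 95% interval (bars), coloured by role class, n = 2 per genotype. The intervals of Dnah5 and Rsph14 alone lie wholly below 0, before adjustment for the number of genes tested, and none lies wholly above 0.

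The light chains sit at the base or on the motor of an arm. Dnali1, the light chain of inner arms, was at 179 and 196 CPM in the KO samples and at 209.96 and 211 CPM in the WT samples, without overlap and with a log2 fold change of -0.17 (95% interval -0.48 to 0.14, limma adjusted p = 0.942). Dnal4 was at 74.8 and 71.9 CPM in the KO samples and at 85.5 and 73.5 CPM in the WT samples. Dnal1, which binds an outer arm motor, was at 21.4 and 18.4 CPM in the KO samples and at 27.3 and 20.2 CPM in the WT samples. All 3 had a negative fold change and 0 passed.

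Dnal1 also shows how the division of reads between transcripts bears on the values. Of its 2 listed transcripts, the longer one took 20.4 and 4.67 CPM in the KO samples and 0.622 and 15.1 CPM in the WT samples. The shorter one took 1.02 and 13.7 CPM in the KO samples and 26.6 and 5.04 CPM in the WT samples. The transcripts traded places between samples of a genotype while the gene's sum stayed between 18.4 and 27.3 CPM, and only sums per gene are compared here.

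The assembly factors were the class with the steadiest sum within each genotype. Their sum was 1573 and 1567 CPM in the KO samples and 1625 and 1624 CPM in the WT samples. Most of it was Dnaaf1, a leucine-rich repeat protein needed before arms can form, at 1238 and 1237 CPM in the KO samples and 1291 and 1271 CPM in the WT samples. The genotypes of Dnaaf1 do not overlap, and the log2 fold change of -0.05 (95% interval -0.31 to 0.21, limma adjusted p = 0.972) did not pass. Its depth-scaled read ratio between KO samples 1 and 2 was 1.00 (exact 95% interval 0.907 to 1.10), where that of Dnah17 was 1.83.

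Dnaaf2, a cofactor of dynein folding, was at 95.6 and 94.97 CPM in the KO samples and at 90.3 and 93.5 CPM in the WT samples. Dnaaf3 was at 127 and 147 CPM in the KO samples and at 149 and 161 CPM in the WT samples. Neither overlaps and they lie in opposite directions, with log2 fold changes of 0.05 and -0.18. Dnaaf4, Dnaaf5 and Dnaaf6 ranged from 10.7 to 67.4 CPM in KO samples and from 9.44 to 59.1 CPM in WT samples and overlapped in each case. Dnaaf5 was less steady than the class sum, at 67.4 and 46.1 CPM in the KO samples and 51.8 and 59.1 CPM in the WT samples.

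The nexin-dynein regulatory complex links neighbouring doublets. Its 3 genes summed to 329 and 318 CPM in the KO samples and to 318 and 325 CPM in the WT samples, so the genotypes overlap. Drc1 was at 129.6 and 130.4 CPM in the KO samples and at 129 and 124 CPM in the WT samples. Drc3 was at 86.8 and 91.8 CPM in the KO samples and at 99.5 and 94.3 CPM in the WT samples. These genotypes do not overlap, above WT for Drc1 and below it for Drc3. Drc7, which overlapped, was at 113 and 96.1 CPM in the KO samples and at 89.96 and 107 CPM in the WT samples. Their log2 fold changes were 0.04, -0.12 and 0.09, and 0 passed.

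The radial spokes carry signals from the central pair to the arms. Rsph1, a spoke head protein, had the highest level per kilobase of the 36 genes in each library, at 1045 and 896 CPM per kilobase in the KO samples and 979 and 933 in the WT samples. Its levels were 1109 and 963 CPM in the KO samples and 1050 and 990 CPM in the WT samples, with overlap and a log2 fold change of 0.02 (95% interval -0.27 to 0.31, limma adjusted p = 0.992). Rsph6a, a testis paralog of the spoke head, was at 254 and 253 CPM in the KO samples and at 265 and 293 CPM in the WT samples, without overlap. Rsph9, another head protein, was at 81.5 and 115 CPM in the KO samples and at 116 and 113 CPM in the WT samples.

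Rsph14 was the radial spoke gene with the smallest p, on chromosome 10 from 74793309 to 74868419. It was at 17.4 and 10.03 CPM in the KO samples (about 13 and 6 reads) and at 32.6 and 22.1 CPM in the WT samples (about 56 and 40 reads), and both KO values lie below both WT values. The log2 fold change was -0.97 (95% interval -1.80 to -0.14, limma adjusted p = 0.942), and the depth-scaled read ratio was 0.518 (exact 95% interval 0.299 to 0.854, counting error only). Without KO sample 1 it passed as lower (-1.34, adjusted p = 0.0013), as did 5.89% of all genes, and without KO sample 2 it stood at -0.60 (adjusted p = 0.244). The reads were spread over 4 transcripts of nearly equal length.

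Tektins run along the doublets as filaments. The 5 genes summed to 1521 and 1504 CPM in the KO samples and to 1616 and 1590 CPM in the WT samples, both KO sums below both WT sums. Tekt1, Tekt2 and Tekt4 stood between 221 and 291 CPM per kilobase in all 4 libraries, and Tekt3 and Tekt5 between 90.6 and 127. Tekt3 lay above Tekt5 in 3 of the 4 libraries, all but WT 2, and Tekt4 was the highest tektin in KO 1 and the lowest of Tekt1, Tekt2 and Tekt4 in KO 2 and WT 1.

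Tekt2, needed for normal sperm movement in the mouse, lies on chromosome 4 from 126215914 to 126219482. It was at 343 and 391 CPM in the KO samples and at 429 and 400.5 CPM in the WT samples, without overlap, with a log2 fold change of -0.18 (95% interval -0.48 to 0.13, limma adjusted p = 0.942). Tekt5 was at 164 and 160 CPM in the KO samples and at 185 and 205 CPM in the WT samples, also without overlap, with a log2 fold change of -0.26 (95% interval -0.59 to 0.06, limma adjusted p = 0.942). Tekt1 was at 347 and 398 CPM in the KO samples and at 401 and 377 CPM in the WT samples. Tekt4 was at 446 and 385 CPM in the KO samples and at 398 and 408 CPM in the WT samples. In Tekt1 and Tekt4 the genotypes overlap. Of the 5 tektins, 4 had a negative fold change and 0 passed.

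A start region of Tekt2 is shown because it holds GTTGCC, in capitals on either strand, in 2 places. It is the most upstream of the gene's 3 RefSeq windows on GRCm38.p6. The next window overlaps it and holds the same 2 places, and the most downstream window holds none.
Tekt2 (chr4:126325639-126325938, minus strand): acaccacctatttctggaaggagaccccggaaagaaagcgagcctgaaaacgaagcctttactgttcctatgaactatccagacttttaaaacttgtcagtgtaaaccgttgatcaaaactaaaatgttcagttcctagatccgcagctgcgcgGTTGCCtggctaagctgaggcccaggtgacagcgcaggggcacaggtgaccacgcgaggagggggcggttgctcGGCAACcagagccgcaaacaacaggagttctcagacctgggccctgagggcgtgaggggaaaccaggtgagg
GTTGCC is also in windows of Tekt1 and Tekt4, and in none of the outer arm windows above.

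Other genes of the axoneme, in lists that do not use these symbols, gave no call either. Of 30 other arm, assembly and docking genes, 13 had a positive and 17 a negative log2 fold change and 0 passed. Daw1, which carries arms into the cilium, was at 16.0 and 19.4 CPM in the KO samples and at 34.3 and 31.5 CPM in the WT samples. Ccdc151 of the docking complex was at 68.9 and 62.9 CPM in the KO samples and at 101 and 85.5 CPM in the WT samples. They had the 2 smallest p-values of their list without passing (limma adjusted p = 0.942 each), and in both the genotypes do not overlap. Genes picked by a small p tend not to overlap, here and in the lists below. Over the 30 genes, both KO values lay above both WT values in 3 (10%, background 15%) and below them in 5 (16.7%, background 19.4%). Of 17 other spoke genes, 5 were positive and 12 negative, with Ak8 at 303 and 289 CPM in the KO samples and 329 and 358 CPM in the WT samples. Morn3 of the same list was at 202 and 226 CPM in the KO samples and 238 and 247 CPM in the WT samples. Both genes had KO values below WT without overlap. Over the 17 genes, 2 lay above WT without overlap (11.8%, background 15%) and 4 below (23.5%, background 19.4%).

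Of 25 central pair genes, 8 were positive and 17 negative. Cfap221 was at 40.1 and 35.1 CPM in the KO samples and at 26.1 and 25.4 CPM in the WT samples. Cfap20 was at 66.7 and 73.6 CPM in the KO samples and at 89.6 and 92.95 CPM in the WT samples. These genes of the central apparatus thus lay on opposite sides of WT. Over the 25 genes, 3 lay above WT without overlap (12%, background 15%) and 7 below (28%, background 19.4%). Of 24 doublet inner protein genes, 7 were positive and 17 negative. Tex37 was at 132 and 152 CPM in the KO samples and at 187 and 178 CPM in the WT samples. Spaca9 was at 243 and 271 CPM in the KO samples and at 326 and 316 CPM in the WT samples. Neither gene overlapped. The medians of the 4 lists (arm, spoke, central pair and doublet) lay between -0.07 and -0.04, near the median of all genes, and 0 of their members passed.

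Of 11 light chain genes shared with cytoplasmic dynein, 8 had a positive log2 fold change and 0 passed. Dynlt1b was at 886 and 2144 CPM in the KO samples and at 353 and 899 CPM in the WT samples, with overlap, and it has near copies that may share reads. Dynlt1c, one of them, was at 356 and 732 CPM in the KO samples and 319 and 364 CPM in the WT samples, also with overlap. Among 7 cytoplasmic dynein genes, 4 were positive, and Dync1i1 was at 5.16 and 3.48 CPM in the KO samples and at 11.5 and 10.1 CPM in the WT samples. Dync1i2 was at 143 and 151 CPM in the KO samples and at 117 and 123 CPM in the WT samples. These intermediate chains of the cytoplasmic motor lay on opposite sides of WT, both without overlap. Over the 7 genes, 1 lay above WT without overlap (14.3%, background 15%) and 3 below (42.9%, background 19.4%). Of 13 transcription factor genes of cilia, 3 were positive and 10 negative, with a median of -0.13. Over the 13 genes, 2 lay above WT without overlap (15.4%, background 15%) and 2 below (15.4%, background 19.4%). Rfx2, the RFX factor of spermatids, was at 434 and 379 CPM in the KO samples and at 461 and 512 CPM in the WT samples, without overlap and with a log2 fold change of -0.26 that did not pass (limma adjusted p = 0.942). Myb, which encodes a MYB factor, was at 3.01 and 5.05 CPM in the KO samples and at 0.0041 and 2.74 CPM in the WT samples. It rests on a few reads or fewer in each library. Genes of other MYB factors were not in the list and were not compared.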

How the data were processed

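Bulk RNA sequencing of 4 mouse testis samples was used, 2 KO and 2 WT, grouped by their titles. Total RNA went into Ion Torrent libraries, per the labels' protocols. The submitters' processing notes name STAR, Partek and mm39, without roles; their versions and settings, and whether strand was used, are not given in the sources at hand. Values were deposited as CPM per RefSeq transcript (29342 transcripts, each column summing to 1000000 as the authors scaled it), and the 4 sample tables matched the series table. Transcripts were summed per symbol. The value of 1 read was taken from the steps of low values; 23.0% to 48.1% of genes came out whole within 0.02 reads, so whole counts were not recovered and read numbers are estimates. Intervals on reads are exact (95%) and cover counting error only.

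Genes reaching 1 CPM in 2 or more libraries entered limma 3.58.1 (R 4.3.3), fitted to log2(CPM + 1) with trend set to true and Benjamini-Hochberg adjustment over all genes. The smallest two-sided p that permuting 2 against 2 samples allows is 0.333, and no permutation test was run. The procedure was run on simulated data with large changes, a small spread between samples and no trend with transcript length. That run does not show how the fit performs on data like these. Named genes were Dnah1, Dnah8, Dnah17 and Tekt2; in each class the 3 highest per kilobase and the 2 of smallest p; up to 5 per direction with the greatest fold change among genes of at least 5 CPM without overlap; and 2 of smallest p in each other list of axoneme, dynein and cilium genes; cell type marker lists had no such rule. Dnah6, Dnah7b, Dnah11, Foxj1, Mlf1, Deup1, Tppp3 and Ccno were named after their values were seen. The genes and lists were chosen with earlier results of these data known. Alternatives covered the pseudocount, filter, scaling, mean trend, library weights, replicate block and each sample left out; centring by length class was added after the data were seen. Promoter windows are from a RefSeq table of GRCm38.p6. Python 3.11.15, pandas 2.3.3, numpy 2.4.6, scipy 1.17.1 and matplotlib 3.10.9 were used.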

Additional observations from a re-analysis of the deposited data

How the results depend on the processing

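With all 4 samples, 0 of the 36 genes passed in limma under any of the 10 alternatives run, and of the fold changes of 28 named genes only that of Dnah17 changed sign (0.0060 with library weights by depth). The number of genes passing over the whole table was 1, against 0 with a pseudocount of 0.1, 0 without a mean trend and 23 (6 higher, 17 lower) with the replicate block; titles share replicate numbers but nothing says that they pair animals, and the correlation of same-numbered deviations over genes was -0.0054. With 1 sample left out, 4 to 1463 genes passed over the whole table and 0 to 3 of the 36 (2 without KO sample 1, 3 without KO sample 2, 0 without either WT sample); with a KO sample left out, the spread came from the WT samples alone. Of the 36 genes, 18 had no overlap with all samples (34.4% of all genes), and 22 to 31 with 1 left out: 31 without KO sample 1 (77.9% of all genes), 30 without KO sample 2 (75.5%), 22 without WT sample 1 (57.7%) and 25 without WT sample 2 (57.5%). The log2 ratio of the summed outer arm heavy chains was 0.08 and lay between -0.32 and 0.40 with 1 sample left out, and that of all 36 genes was -0.01 and lay between -0.11 and 0.078. Leaving out 1 sample also turned the sign of Dnah1 (-0.31 to 0.41), Dnah2 (-0.21 to 0.12), Dnah8 (-0.20 to 0.46), Dnah17 (-0.47 to 0.40), Drc7 (-0.037 to 0.21), Rsph1 (-0.081 to 0.12), Rsph9 (-0.48 to 0.0100), Tekt1 (-0.16 to 0.034) and Tekt4 (-0.068 to 0.15). The assembly factors (log2 ratio -0.050) moved by more than their small spread to -0.054 with trimmed mean rescaling, -0.067 with quantile normalization and -0.021 with length centring, and the tektins, at -0.084, moved to -0.051 with length centring. Low genes are limited by depth: 6 of the 36 had under 30 estimated reads over both KO libraries.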
